A study of Capra hircus with 4 samples.

Results

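The collagen, laminin and integrin genes of goat skeletal muscle were examined in 4 RNA-seq libraries. They were taken by name from the authors' table that pairs unigenes, the transcripts assembled from the reads, with goat genes: 43 of 11208 gene names began with the symbol of a collagen chain, a laminin chain or a numbered integrin subunit, and 118 of 21195 unigenes carried such a name. The names of 3 integrin-binding proteins were left out. COL4A3BP has a collagen symbol but encodes a ceramide transfer protein, so it was kept apart, which left 42 genes: 19 collagens, 9 laminins and 14 integrins.

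The libraries came from the longissimus dorsi muscle of Cashmere goats aged 2 months. In the experiment, goats received ractopamine, a β2-adrenergic agonist, by mouth at 1 mg/kg body weight each morning for up to 28 days, and animals were then followed for up to 21 days of withdrawal. There was 1 control library, from goats not given the drug, and there were 3 treated libraries, which the labels number 1 to 3 and which are called T1, T2 and T3 here. By the study's methods, treated muscle was sequenced at different days of dosing and withdrawal, so the 3 libraries are not of the same condition. The labels give no day for a library, and none is assigned here. Whether a library holds more than 1 animal is not given in the sources used here. The same methods state that the muscle was washed to remove fat and connective tissue, which is where many of these genes are mainly expressed.

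Muscle fibres are wrapped in a basement membrane, a sheet of laminin and type IV collagen, which lies against a looser matrix of fibrillar collagens and type VI collagen. Fibroblasts make most of the fibrillar and type VI collagen, and endothelial and muscle cells contribute to the basement membrane. Integrins are paired alpha and beta receptors in the cell membrane that bind these proteins outside the cell and tie them to the cytoskeleton inside it, and the alpha 7 and beta 1 pair is the main laminin-binding integrin of muscle.

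T2 stood apart from the other libraries. The libraries held between 6675218 and 8533046 counts, but only 1.82% of the counts of T2 fell on named goat genes, against 71.3% in the control library, 50.1% in T1 and 40.4% in T3. Most of its other paired counts were on unigenes matched to proteins that the table gives without a gene name, which are mitochondrial. Levels are given as counts per 1000000 goat gene counts of the same library (CPM), so that 1 count in T2 stood for a level of 7.47, against 0.164, 0.251 and 0.371 in the control library and T1 and T3. Values listed in a row are in the order control, T1, T2 and T3, and ratios to control in the order T1, T2 and T3.

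The collagen chains can be recognised in the assembled sequences by the glycine that recurs at the start of each residue triplet of their helical parts. An uninterrupted run of at least 10 such triplets, each a codon of GG and any base followed by any other codons, read in the frame of the coding sequence, was found in 41 of 21195 unigenes (0.193%), and 16 of the 19 collagen genes had a unigene with one. The laminin and integrin genes had none, with longest runs of 4 and 3 triplets. The first 90 bases of the longest run are shown for 4 of the collagen chains on which the results turn, with the glycine codons in capitals.
COL4A1: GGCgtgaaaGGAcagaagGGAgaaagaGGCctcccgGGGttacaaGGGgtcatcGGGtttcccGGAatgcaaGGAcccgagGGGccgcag
COL4A2: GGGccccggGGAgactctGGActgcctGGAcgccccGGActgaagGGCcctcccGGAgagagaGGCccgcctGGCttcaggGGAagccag
COL6A1: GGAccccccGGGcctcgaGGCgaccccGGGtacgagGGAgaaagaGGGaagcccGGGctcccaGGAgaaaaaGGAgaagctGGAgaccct
COL1A1: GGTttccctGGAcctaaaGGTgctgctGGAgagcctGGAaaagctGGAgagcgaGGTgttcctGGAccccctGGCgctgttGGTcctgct

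The run was 40 triplets long in COL4A1 and 66 in COL4A2, the basement membrane chains, whose helix is known to be broken in many places. It was 87 triplets in COL6A1 and 204 in COL1A1, the chain of fibrillar type I collagen. The lengths are those of the assembled pieces, so a chain assembled only in part has a shorter run than the whole gene would.

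The integrin alpha subunits share a short stretch just inside the membrane. The codon pattern of its core (GG, TT, TT and AA, each followed by any base) was searched in frame on the coding strand and found in 5 of 9 integrin alpha genes, against 126 of 21195 coding sequences (0.594%). It is shown for the alpha 7, alpha 6 and alpha 1 subunits, which bind laminin or collagen, in 42 bases with the pattern in capitals.
ITGA7: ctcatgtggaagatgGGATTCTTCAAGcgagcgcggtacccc
ITGA6: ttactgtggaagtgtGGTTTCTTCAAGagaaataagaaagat
ITGA1: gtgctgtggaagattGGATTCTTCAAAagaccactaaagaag

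In the control library, the receptor and basement membrane genes were the most abundant per length. ITGA7, the muscle laminin receptor subunit, had 62.8 CPM per kb of effective length. It was followed by its partner ITGB1 at 29.2, by the laminin alpha chain LAMA5 at 27.2, by COL4A2 at 22.7 and by the laminin beta chain LAMB2 at 21.4. COL6A1 at 18.8, COL4A1 at 18.6, ITGB5 at 17.7 and COL6A2 at 16.9 came next and were close to each other, while COL1A1 stood at 4.87. In T2 the order was another: COL4A2 at 458, COL4A1 at 401, COL1A1 at 269, COL6A2 at 249 and COL6A1 at 224 CPM per kb all lay above ITGA7 at 59.0.

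Together the 42 genes took 0.118% of the goat gene counts in the control library, 0.121% in T1, 0.144% in T3 and 0.935% in T2. In such bulk samples, fewer cells of a type and less RNA per cell cannot be told apart. Of these genes, 25 passed the filter of a mean level of at least 5 over the libraries: 12 collagens, 6 laminins and 7 integrins. COL11A2, COL5A1 and ITGA1 passed only through T2, as did 378 of all 6765 goat genes that passed. The other 17 genes, with at most 69 counts over the 4 libraries, did not reach this mean level, to which a single count in T2 adds the most. Of the 42 genes, 15 had 0 counts in T2, but all of these stood at a level of 5.09 or less in the control library, and a count of 0 in T2 allows a level of up to 22.4 (3 counts), so no loss was detectable at this depth.

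**Figure D1:**
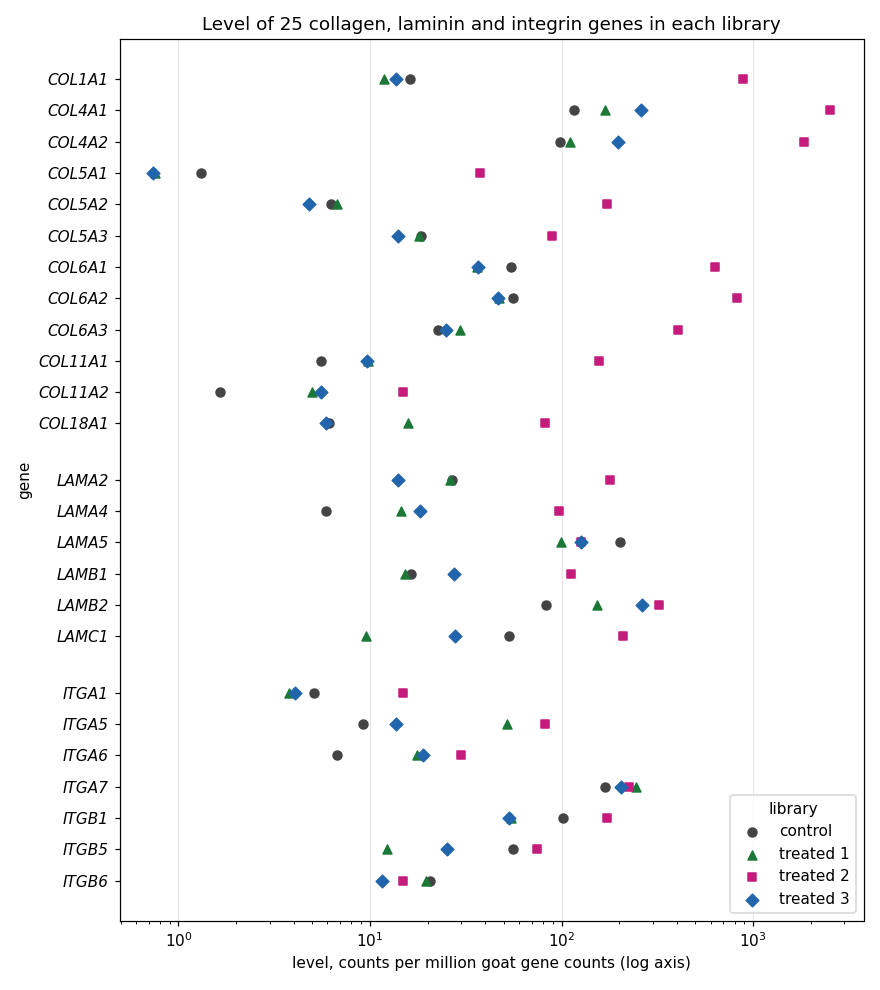
Level of the 25 genes that passed the filter, in CPM of goat gene counts on a log axis, with 1 symbol per library (treated 2 in the key is T2) and the genes ordered as collagens, laminins and integrins from top to bottom. The collagens of T2 lie to the right of the other 3 libraries, COL4A1 at 2511 against 117 to 259, while relative to all counts of the library only COL1A1 of the 25 genes was higher in T2 than in the control library.

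The change against control was expressed as x-fold, the ratio of the level plus 1 in a treated library to that in the control library, divided by the median ratio of all 6765 goat genes tested. That median ratio, on the log2 scale, was -0.31, -0.39 and -0.39 in T1, T2 and T3. The limits for a high and a low x-fold were 3 and 0.6. All levels and x-folds are relative to goat gene counts, and relative to all counts of the library each of the 25 tested genes except COL1A1 was below control in T2. With 1 control library an x-fold has no replicate check, and the 3 x-folds of a gene share the same control value. A single control library, whose day is not given, cannot be matched in day to treated libraries of different days. Time and treatment can therefore not be told apart in the x-folds. The intervals below are exact Clopper-Pearson intervals of the ratio of levels before centring and cover counting error only.

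Type IV collagen, the network of the basement membrane, had the most counts of any collagen. COL4A1 had 711 counts in the control library, 675 in T1, 336 in T2 and 698 in T3, which gave levels of 117, 169, 2511 and 259. Its ratio to control was 1.45 (95% interval 1.30 to 1.61), 21.5 (18.8 to 24.5) and 2.21 (1.99 to 2.46), and its x-fold was 1.80, 27.9 and 2.88. COL4A2, whose chain assembles with that of COL4A1, had 596, 441, 248 and 531 counts and x-folds of 1.40, 24.6 and 2.62. All treated libraries lay above the control library in level for both chains, T2 by far the most, and neither passed 3 in T1 or T3. For COL4A2 in T1 the ratio to control was 1.13, with an interval of 0.995 to 1.28 that includes 1. Relative to all counts of the library, the log2 x-fold of COL4A2 in T1 was -0.33.

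The fibrillar collagens, which form the tensile fibres of connective tissue, passed the limit of 3 only in T2, except COL11A2. COL1A1 had 98, 47, 119 and 37 counts. Its level was 16.1, 11.8, 889 and 13.7, and its ratio to control was 0.73 (0.51 to 1.05), 55.2 (41.9 to 72.9) and 0.85 (0.57 to 1.26). It was the highest x-fold of the 25 genes in T2, at 68.2, with the other treated libraries below control in level by less than counting error. Reads of COL1A1 may be shared with a near copy, LOC102188530, described as collagen alpha-1(I)-like.

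COL5A2, a chain of the type V collagen that regulates fibre width, had 38, 27, 23 and 13 counts and x-folds of 1.33, 31.2 and 1.05. COL5A1, its partner chain, had only 8, 3, 5 and 2 counts, so its x-fold of 21.7 in T2 rests on 5 counts. Among the genes singled out after their values were seen, COL11A1 had 34, 39, 21 and 26 counts and x-folds of 2.03, 31.4 and 2.11, but its longest unigene matched goat COL11A1 with 74% identity and had as its best protein match a collagen alpha-1(V)-like chain of cattle, so the chain it stands for is uncertain. COL11A2 had 10, 20, 2 and 15 counts and passed 3 in T3, at 3.25, and in T2, at 7.90, where it rests on 2 counts. Its longest unigene had 3, 17, 0 and 10 counts and its other 4 together 7, 3, 2 and 5, so the high values of T2 and T3 came from different pieces.

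Type VI collagen, which links the basement membrane to the looser matrix, was read from its 3 chains. COL6A1 had 330, 145, 85 and 99 counts, with x-folds of 0.84, 15.1 and 0.89. COL6A2 had 341, 188, 110 and 125 counts and x-folds of 1.05, 18.9 and 1.09. COL6A3 had 138, 118, 54 and 67 counts and x-folds of 1.61, 22.4 and 1.43. In T1 and T3 the x-folds of the 3 chains lay on either side of 1, and in T2 all were above 15. The ratio to control in T1 was 0.67 (0.55 to 0.82) for COL6A1 and 1.30 (1.01 to 1.68) for COL6A3, so these chains differed there by more than counting error. COL18A1, whose protein is a basement membrane collagen and the source of endostatin, differed from these in T1, where it had 63 counts against 37 in the control library and an x-fold of 2.95. Its 16 counts in T3 and 11 in T2 gave x-folds of 1.28 and 15.4. COL12A1 was paired with a single short unigene and had 2 counts in the control library and 0 in the others.

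COL1A2, COL3A1 and COL15A1 stand in the table under names made of LOC and a number, which were matched by their gene identifiers in RefSeq, goat assembly ARS1.2. They were added after the data had been seen and are not counted among the 42 genes. COL3A1, the chain of the type III collagen of soft connective tissue, had 144, 136, 310 and 137 counts and x-folds of 1.77, 123 and 2.75. COL1A2, the partner of COL1A1, had 123, 96, 146 and 83 counts and x-folds of 1.47, 67.4 and 1.96. COL15A1, a basement membrane collagen, had 133, 93, 43 and 111 counts and x-folds of 1.32, 18.5 and 2.41. COL3A1 thus had more counts in T2 than in the control library although that library held far fewer goat gene counts.

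The laminins are made of an alpha, a beta and a gamma chain. LAMA2, the alpha chain of mature muscle fibres, had 164, 105, 24 and 38 counts in the control library and T1, T2 and T3, and its x-fold was 1.22, 8.45 and 0.71. LAMA4, an alpha chain of vessel walls and nerve, had 36, 58, 13 and 49 counts, levels of 5.91, 14.5, 97.2 and 18.2 and x-folds of 2.79, 18.6 and 3.63. LAMA5, a widely expressed alpha chain, was the only tested gene of the group with an x-fold below 1 in every treated library: it had 1233, 396, 17 and 340 counts and x-folds of 0.61, 0.82 and 0.82. The proportions of the alpha chains differed between libraries. The ratio of LAMA4 to LAMA5 counts was 0.03 in the control library (0.02 to 0.04), 0.15 in T1 (0.11 to 0.19), 0.14 in T3 (0.10 to 0.19) and 0.76 in T2 (0.34 to 1.67).

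LAMB2, the beta chain enriched at the neuromuscular junction, had 506, 615, 43 and 706 counts, levels of 83.1, 154, 321 and 262 and x-folds of 2.29, 5.02 and 4.08. LAMC1, the gamma chain that most laminins contain, had 324, 38, 28 and 75 counts, levels of 53.2, 9.52, 209 and 27.8 and x-folds of 0.24, 5.08 and 0.69. The chains LAMB2 and LAMC1 thus parted in T1 and T3. The ratio of their counts was 1.56 in the control library (1.36 to 1.80), 16.2 in T1 (11.7 to 23.1), 9.41 in T3 (7.41 to 12.1) and 1.54 in T2 (0.93 to 2.57). LAMB1, the other widely expressed beta chain, had 100, 61, 15 and 74 counts and x-folds of 1.16, 8.50 and 2.13.

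Among the integrins, ITGA7 had 1023, 974, 30 and 552 counts, levels of 168, 244, 224 and 205, and x-folds of 1.80, 1.74 and 1.59, which lay close together. ITGB1, the beta subunit shared by most matrix-binding integrins, had 621, 217, 23 and 144 counts, levels of 102, 54.4, 172 and 53.4 and x-folds of 0.67, 2.20 and 0.69. The ratio of ITGA7 to ITGB1 counts was 1.65 in the control library (1.49 to 1.82) and 4.49 and 3.83 in T1 and T3 (3.87 to 5.22 and 3.19 to 4.64). In T2 it was 1.30, with a wide interval of 0.73 to 2.35 that includes the control value.

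ITGA5, the alpha subunit of the fibronectin receptor, had 56, 207, 11 and 37 counts, levels of 9.20, 51.9, 82.2 and 13.7 and x-folds of 6.44, 10.7 and 1.89. It was the only gene of the group above 3 in T1. ITGA6, another laminin-binding alpha subunit, had 41, 70, 4 and 51 counts and x-folds of 2.98, 5.23 and 3.37, just under the limit in T1. ITGB5, a beta subunit that binds vitronectin with the alpha V subunit, had 338, 49, 10 and 68 counts and x-folds of 0.29, 1.75 and 0.61, so that its low value in T1 was not seen in T2. ITGB6, known mainly from epithelia and named after its values were seen, had 126, 78, 2 and 31 counts and x-folds of 1.18, 0.96 and 0.75. ITGA1, a collagen-binding subunit, had 31, 15, 2 and 11 counts and x-folds of 0.97, 3.43 and 1.09, and ITGA3 had 4 counts in the control library and at most 1 in the others.

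Counted against the limits, T2 differed from the others. In T2, 20 of the 25 genes were above 3, against 16.9% of all goat genes tested: 12 of 12 collagens, 5 of 6 laminins and 3 of 7 integrins. Without COL11A2, COL5A1 and ITGA1, which passed the filter only through T2, 17 of 22 genes were above 3: 10 of 10 collagens, 5 of 6 laminins and 2 of 6 integrins. The share of 16.9% still includes the 378 goat genes that passed only through T2, and no share was taken without them. Of the 25 genes, none was below 0.6, against 32.2% of all genes. In T1, 1 gene (ITGA5) was above 3, against 6.4% of all genes, and 2 (LAMC1 and ITGB5) were below 0.6, against 21.1%. In T3, 4 genes (COL11A2, LAMA4, LAMB2 and ITGA6) were above 3, against 3.9% of all genes, and 0 were below 0.6, against 17.5%. No gene of the group was above 3 in all 3 treated libraries, against 1.64% of all genes, and none was below 0.6 in all 3, against 7.1%. Without T2, 0 of the 25 genes were above 3 in both T1 and T3, against 2.04% of all genes, and 0 were below 0.6 in both, against 10.7%. With a smaller pseudocount of 0.1, COL11A2, ITGA6 and LAMA4 were above 3 in all 3.

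The median log2 x-fold of the 25 genes was 3.09 in T2, where the median of all genes is 0 by construction, with medians of 4.46 for the collagens, 2.71 for the laminins and 1.14 for the integrins. This holds relative to goat gene counts only: relative to all counts of the library, the median was -1.66 and the single gene above control was COL1A1. In T1 and T3 the median was 0.29 and 0.17, and without centring it was -0.03 and -0.22, so neither direction holds across scalings. A centred x-fold above 1 in all 3 treated libraries was found for 15 of the 25 genes and for 27.5% of all genes.

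**Figure D2:**
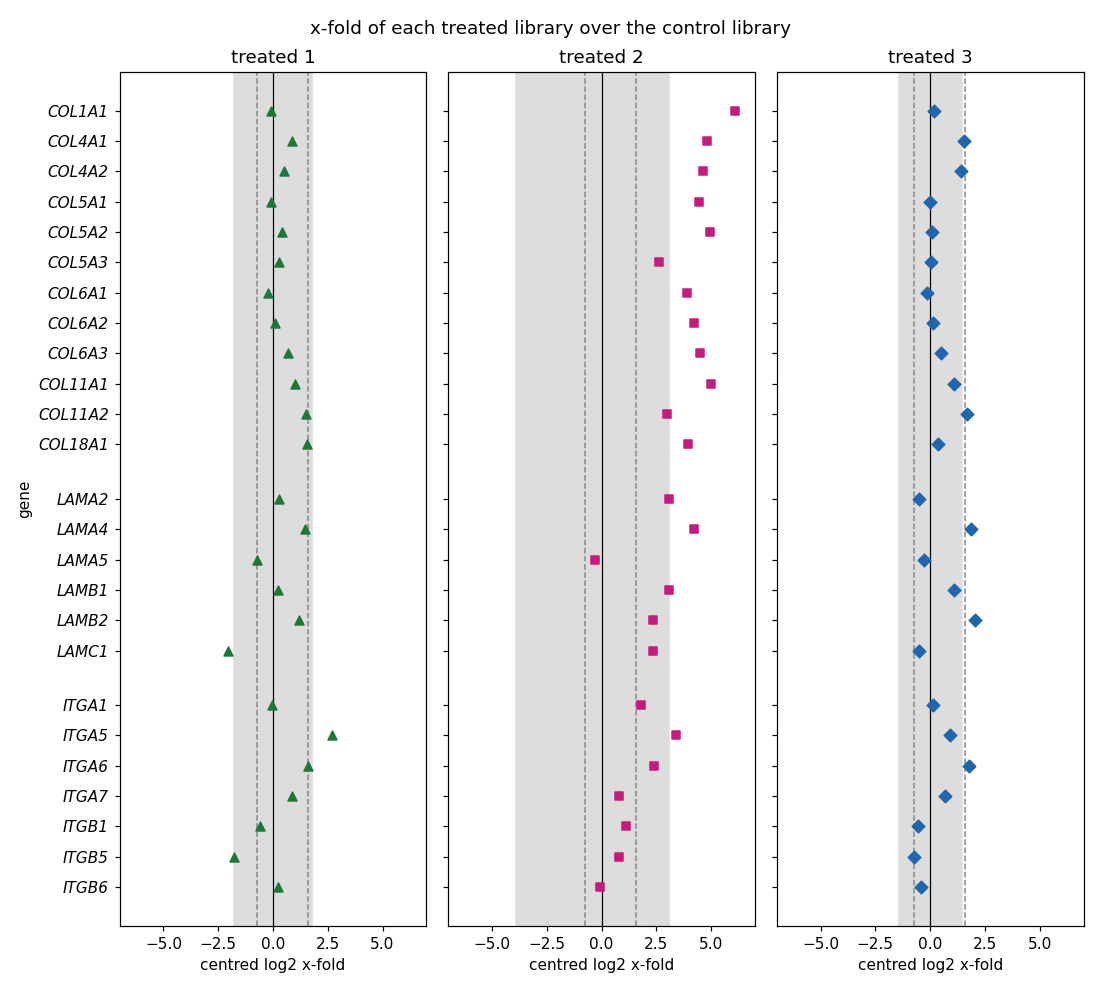
Log2 x-fold of the 25 genes in each treated library over the control library, relative to goat gene counts and centred on the median of all 6765 goat genes tested. Dashed lines mark the limits 3 and 0.6, and the grey band spans the central 90% of all genes, from -3.93 to 3.08 in T2. In T2 the collagens lie between 2.61 and 6.09 and the integrins between -0.06 and 3.42, whereas relative to all counts of that library 24 of the 25 genes were below control.

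Ratios between genes of the same library do not depend on the scaling. Collagen and integrin genes had similar summed counts in the control library, with 2485 and 2303 counts and a ratio of 1.08 (1.02 to 1.14). The ratio was 1.13 (1.06 to 1.21) in T1, 1.82 (1.68 to 1.97) in T3 and 12.1 (9.67 to 15.2) in T2, where 1026 collagen counts stood beside 85 integrin counts. The ratio of collagen to laminin counts was 1.05 (0.99 to 1.11), 1.48 (1.38 to 1.59), 7.33 (6.14 to 8.81) and 1.31 (1.22 to 1.41) in the control library and T1, T2 and T3. The collagens of T2 were thus higher against the receptors and against the laminins, by more than counting error, whichever library total is used.

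The proportions of chains of the same collagen were compared next. COL4A1 had 1.19, 1.53, 1.35 and 1.31 counts per count of COL4A2 in the control library and T1, T2 and T3, and only the interval of T1 (1.36 to 1.73) did not overlap that of the control library (1.07 to 1.33). For COL6A1 over COL6A2 the ratio was 0.97, 0.77, 0.77 and 0.79, with overlapping intervals. For COL6A3 over COL6A2 it was 0.40, 0.63, 0.49 and 0.54, with intervals of 0.33 to 0.49 in the control library and 0.49 to 0.79 in T1. Type IV over type VI was 1.62 (1.48 to 1.77) in the control library, 2.47 (2.22 to 2.77) in T1, 2.35 (2.02 to 2.73) in T2 and 4.22 (3.71 to 4.82) in T3.

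**Figure D3:**
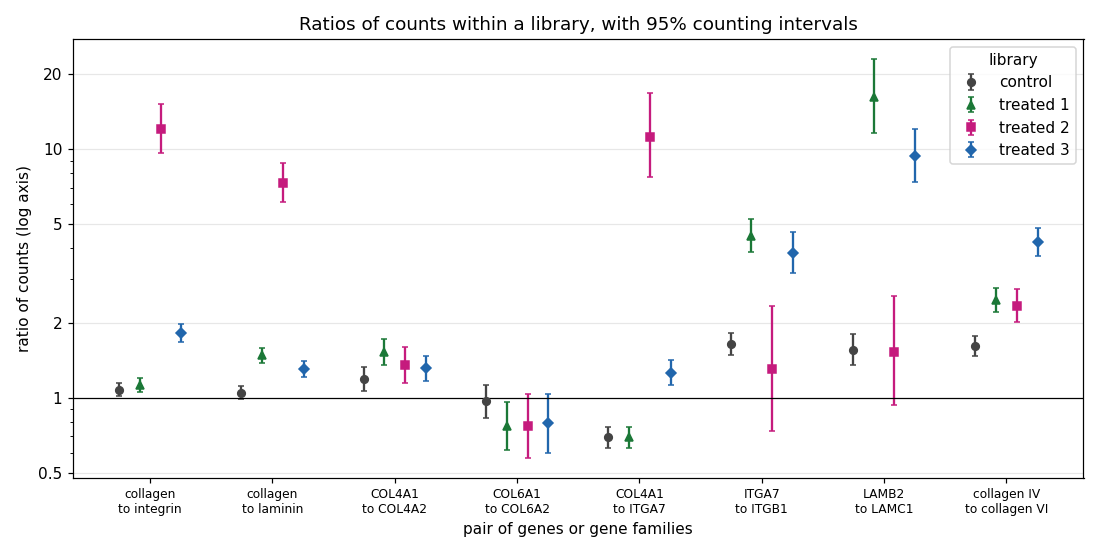
Ratio of counts of a pair of genes or gene families within each library, on a log axis, with exact 95% intervals for counting error. Collagen over integrin and COL4A1 over ITGA7 set T2 apart, at 12.1 and 11.2, while ITGA7 over ITGB1 and LAMB2 over LAMC1 set T1 and T3 apart from the control library and T2.

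The treated libraries were then compared as a group with the control library by edgeR's quasi-likelihood test across all 6765 goat genes, in which the spread comes from the 3 treated libraries, of different days, and the lone control library is assumed to vary like them. edgeR called 0 goat genes at an adjusted p under 0.05 in either direction (0%), and 0 of the 25 genes of the group. At an unadjusted p under 0.05, edgeR gave 534 genes (7.89%), with ITGA5, ITGA6 and LAMA4 among them, and DESeq2 gave 403 genes, 10 of them of the group, with 3 calls among all genes after adjustment and 0 in the group. ITGA6 had a log2 fold change of 1.87 with a standard error of 0.70 and an edgeR adjusted p of 0.586. ITGA5 stood at 2.51 with a standard error of 0.99 and LAMA4 at 2.68 with a standard error of 1.10, and each was higher in level in 3 of 3 treated libraries. COL4A1 had a log2 fold change of 3.22 with a standard error of 1.59 (edgeR adjusted p = 0.645) and COL1A1 of 4.30 with a standard error of 2.45 (edgeR adjusted p = 0.694), so neither passed the test, given the spread between the treated libraries.

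When T2 was left out, edgeR called 48 goat genes, against 4 without T1 and 9 without T3, and in each case 0 of the group. The test without the filter on low counts called COL1A1, at an edgeR adjusted p of 0.0356 with a log2 fold change of 4.12. It was the 1 gene called of the 42 of the group, among 104 calls in 11195 genes. The level of COL1A1 was above control in T2 only, with ratios of 0.73 in T1 and 0.85 in T3.

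The genes that act with the collagens, laminins and integrins were read from lists of known members. Of 27 paired matrix partner genes, such as proteoglycans and glycoproteins, 21 were tested, and 20 of them were above 3 in T2, 6 in T1 and 2 in T3, beside the 16.9%, 6.4% and 3.9% of all genes. FMOD, 1 of the 20, passed the filter only through T2. SPARC, a collagen-binding glycoprotein and the most abundant of them, had 343, 359, 262 and 647 counts, and the log2 x-fold was 0.98, 5.48 and 2.46. Of 13 tested genes of collagen making, which modify, fold, trim or cross-link the chains, 10 were above 3 in T2, 1 in T1 and 0 in T3. Of the 10, LEPREL2, BMP1, PCOLCE2 and CRTAP passed the filter only through T2, with 3, 2, 2 and 5 counts there. P4HB, a subunit of the enzyme that hydroxylates proline in collagen, had the highest mean level of the list. It had 1105, 428, 20 and 212 counts and log2 x-folds of -0.44, 0.11 and -0.81. Of 9 tested genes of matrix breakdown, 6 were above 3 in T2, 1 in T1 and 2 in T3, and 3 were below 0.6 in T1. ADAM10, 1 of the 6, passed the filter only through T2, with 2 counts there. The same shares of all genes apply to the counts of these lists and of the lists that follow, with 32.2%, 21.1% and 17.5% below 0.6 in T2, T1 and T3. TIMP3, an inhibitor of matrix-degrading enzymes, had 431, 686, 69 and 215 counts.

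Other listed genes hold the matrix from within the muscle cell. Of 13 tested genes of muscle cell anchorage, which build or modify the dystrophin complex, 1 was above 3 in T2 and 4 were below 0.6, against 16.9% and 32.2% of all genes. The 1 above 3, SGCE, passed the filter only through T2, with 2 counts there. The median log2 x-fold of the 13 genes was -0.45, -0.24 and -0.26 in T1, T2 and T3. DMD, the gene of dystrophin, had 664, 95, 4 and 70 counts and log2 x-folds of -1.84, -1.44 and -1.64. SNTB1, a syntrophin, and LARGE, which adds the sugars by which dystroglycan binds laminin, were the others below 0.6 in all 3. Of 24 tested integrin adaptor genes, 3 were above 3 and 8 below 0.6 in T2, near the shares of all genes. TNS3, 1 of the 3 above, passed the filter only through T2, with 2 counts there. PXN and TNS1, which join integrins to actin, were the 2 adaptor genes below 0.6 in all 3 treated libraries, beside 7.1% of all genes. TNS1 had 1656, 164, 9 and 197 counts. FLNC, a muscle filamin, had the highest mean level of the adaptor genes and weighs on their summed level. It had 55471, 58356, 115 and 5172 counts and log2 x-folds of 1.00, -3.02 and -1.86.

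Fibroblast markers were high in T2 together with the collagens. Of the fibroblast markers, 9 of 9 tested were above 3 in T2. Of these, FAP, THY1 and PI16 passed the filter only through T2, where FAP and THY1 had 4 counts each. The summed level of the list was 193 in the control library, 301 in T1, 466 in T3 and 2533 in T2. Its ratio to control in T2 was 13.1, beside 18.8 for the collagens. DCN, the proteoglycan decorin, had the highest mean level of the fibroblast markers through its level in T2, with 278, 195, 139 and 223 counts. LUM had 315, 429, 39 and 469 counts and was above DCN outside T2. Of the 10 paired fibroblast markers, 1 was at 0 in each treated library. The endothelial markers stood at a summed level of 411, 336, 1211 and 596 in the control library and T1, T2 and T3, with 6 of 10 tested above 3 in T2. The adipocyte markers stood at 623, 511, 1263 and 406, with 5 of 7 above 3 in T2 and 2 of 7 below 0.6. Of the 5, PLIN1, CIDEC and CIDEA passed the filter only through T2, with 5, 11 and 3 counts there. In T1 the endothelial and adipocyte sums were 0.82 of control and in T3 the adipocyte sum was 0.65, while the collagen sum was 1.16 in T1 and 1.52 in T3, beside 1.45 for the endothelial sum in T3. These sums lean on single genes: VWF stood at 179 in the control library and 54.1 in T1, and ADIPOR2 at 416, 175 and 246 in the control library, T1 and T3. The median log2 x-fold in T1 was 0.46 for the endothelial and 0.50 for the adipocyte markers. Of the adipocyte markers, 3 of 7 were above 3 in T1 and 2 below 0.6, and their median in T3 was 0.66. The part of these cells in the levels of the collagens was not tested. DCN, LUM, DPT and MFAP5 are both fibroblast markers and matrix partners.

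The tissue label was checked against muscle fibre markers, which were abundant in all libraries, with a summed level of 131911, 115257, 111734 and 172631. Of 12 tested fibre markers, 5, 8 and 4 were below 0.6 in T1, T2 and T3, against 21.1%, 32.2% and 17.5% of all genes. Above 3 were 1, 0 and 1 of them, and their median log2 x-fold was -0.19, -1.09 and 0.15. CKM, the muscle creatine kinase, was the most abundant and held 9093 of the 14951 counts of the list in T2. The study reports NEB as raised in treated muscle by RNA-seq and qRT-PCR. Here NEB and RYR1 were below 0.6 in all 3 treated libraries, and the cause of the opposite direction of NEB was not tested. ACTA1 was below 0.6 as well, but muscle actins are nearly identical, and the table puts a control level of 39135 on the smooth muscle name ACTA2 and of 21.4 on the skeletal name ACTA1. Neither actin name can therefore be read as a marker here, and the level under ACTA2 is no measure of smooth muscle, whose myosin gene MYH11 stood at 18.6. Of the 10 genes of the smooth muscle and pericyte list, 5 were above 3 in T2, and CSPG4, 1 of the 5, passed the filter only through T2. Of the Schwann cell and nerve markers, 3 of 3 tested were above 3 in T1 and T2, and 1 was above 3 and 1 below 0.6 in T3. The myeloid markers were near 0, with summed levels of 2.14, 6.77, 7.47 and 2.22, and the single paired red blood cell marker, SLC4A1, had 26, 23, 2 and 19 counts. The smooth muscle, nerve, myeloid and red cell markers were not tested for a part in the results either.

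**Figure D4:**
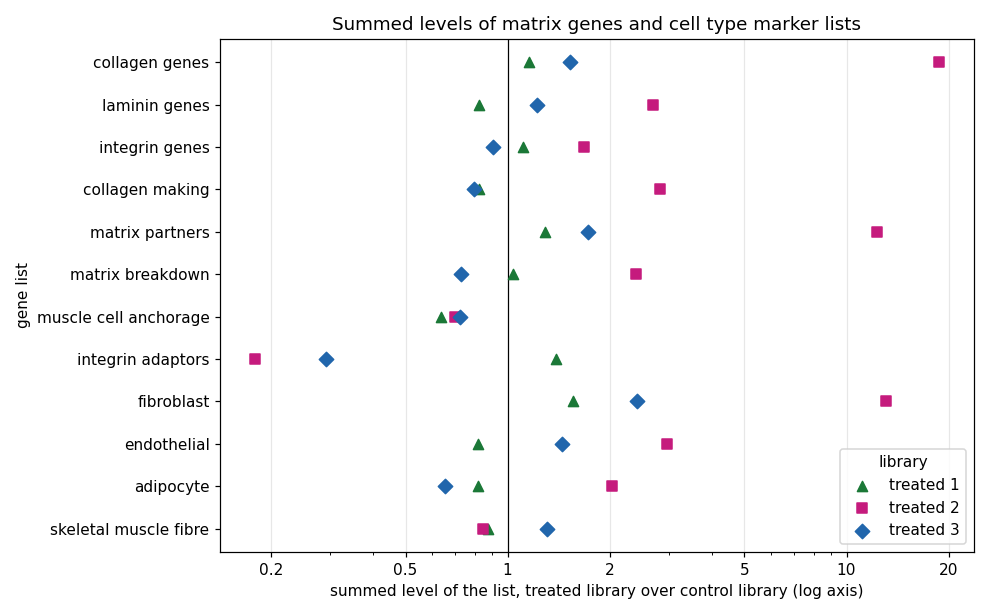
Ratio of the summed level of each gene list in a treated library to that in the control library, relative to goat gene counts and before centring, on a log axis. In T2 the collagens (18.8), the matrix partners (12.3) and the fibroblast markers (13.1) lie far to the right of the integrins (1.68) and of the muscle fibre markers (0.85), and relative to all counts of the library the collagens of T2 stood at 0.48 of control. The sum of the muscle fibre markers is largely that of CKM in T2, where 8 of 12 of these markers had an x-fold below 0.6.

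The group is made of long genes, and length moved with the x-fold in these libraries. All tested genes were put in 4 classes of equal size by the length of their longest unigene. Of the 25 genes, 18 were in the longest class, above 2920 bases, where the median log2 x-fold of all genes was -0.38, -0.72 and -0.41 in T1, T2 and T3, against 0.48, 0.84 and 0.54 in the shortest class. The longest class held 8 of the tested collagens, all above 3 in T2. By GC content, 9 of the 12 tested collagens were in the richest of 4 such classes, where the median log2 x-fold of all genes in T2 was 0.29. The part of length and GC content in the values was not tested further.

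Several of the genes were assembled in pieces, and the pieces did not keep their proportions. Of the 25 genes, 15 had more than 1 unigene. With the counts of these 15 genes pooled, the longest unigenes had 88.2% of the control counts, 93.4% in T1, 82.4% in T2 and 93.3% in T3. LAMA5 alone gave 1199 of the 2144 pooled longest-unigene counts in the control library, but 15 of 192 in T2. The lower pooled share of T2 therefore cannot be read as a shift common to these genes. In LAMA4 the longest unigene had 21, 53, 13 and 46 counts and the other 5 unigenes together 15, 5, 0 and 3, so the longest piece was higher in T1 and T3 and the others were lower. In LAMA2 the longest unigene had 134 and 103 counts in the control library and T1, and the other 7 had 30 and 2. In COL18A1 the longest had 17 and 49 counts in these libraries, and the other 3 had 20 and 14. Over all genes with several unigenes, the median share in the longest was 77.7% in the control library, 92.9% in T1, 100% in T2 and 88.2% in T3. These are medians over genes, so they cannot be set against the pooled shares of the group. A summed level depends on which pieces are counted. With 1 unigene per gene, ITGA6 and LAMA4 were above 3 in all 3 treated libraries.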

How the data were processed

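RNA of longissimus muscle was sequenced by the authors on an Illumina instrument with a NEBNext Ultra kit and assembled into 59774 unigenes. Per the labels, FastQC 0.10.1 was among the tools, and the assembler and the counting tool are not given in the sources used here. The authors deposited an expected count for each unigene and library, all of which were whole. TPM, FPKM and transcript tables were not used. A deposited table pairs 21220 unigenes with goat genes and gives the percent identity of the protein match, as calculated by the authors.

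Here, expected counts, used without rounding since all were whole, were summed over the unigenes of each gene name. The 25 paired unigenes without a gene name, mitochondrial by their matches, took 23.8, 42.8, 97.9 and 55.2% of the paired counts in the control library and treated libraries 1 to 3 (T1, T2 and T3) and were left out of library sizes. Library totals were 8533046, 7962590, 7339521 and 6675218 counts, and goat gene counts 6086312, 3991046, 133809 and 2697657. Genes with a mean of at least 5 counts per 1000000 goat gene counts were tested (6765). The x-fold used a pseudocount of 1 count per 1000000 and was centred on the median of all genes tested, so x-folds of low genes understate the change, and its limits were taken from the study's selection criteria. Treated and control libraries were compared by edgeR 4.0.16 with TMM scaling, the quasi-likelihood test and Benjamini-Hochberg adjustment over all genes, with DESeq2 1.42.0 as an alternative (R 4.3.3, Python 3.11.15), and the residual degrees of freedom were 2. By the study's methods the treated libraries are of different days, so the test treats different time points as replicates, and p-values measure only the spread between these libraries, which may include effects of time. Intervals are 95% exact Clopper-Pearson intervals and, like the floor of 3 counts, cover counting error only, since no molecular identifiers are mentioned. The x-fold and edgeR steps were tested on simulated data.

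The genes and lists were chosen with earlier results of these data known. Genes named were a written list of chains and subunits, the 3 of highest mean level in each family, genes past the same limit in all 3 treated libraries and those called by edgeR. List genes were named where of the highest mean level or past a limit in all 3, and others only to state a limit of a list. COL11A1, COL11A2 and ITGB6 were named after their values were seen. No goat genome of a stated build was used, so no positions are given. RefSeq ARS1.2 lists 41 of the 42 symbols. Sequences are those of the deposited unigenes. Alternatives covered scaling, pseudocount, filters, identity, unigenes per gene, limits and each treated library left out.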

Additional observations from a re-analysis of the deposited data

How the results depend on the processing

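The counts of genes past a limit changed with small choices, and several genes lay near 3. The number of genes of the group above 3 in all 3 treated libraries was 0 in the values reported, 3 with a pseudocount of 0.1 (COL11A2, ITGA6 and LAMA4), 2 with 1 unigene per gene (ITGA6 and LAMA4), 5 with limits of 2 and 0.5 (COL11A1, COL11A2, ITGA6, LAMA4 and LAMB2), and 1 (ITGA6) with an identity of at least 80%, without the filter on low counts, or with a total of at least 30 counts, the last chosen after seeing the data. With each treated library left out in turn it ranged from 0 to 4: COL11A2, ITGA6, LAMA4 and LAMB2 without T1, and ITGA5 without T3. The number below 0.6 in all 3 was 0, except 5 (COL6A1, ITGB1, ITGB5, LAMA5 and LAMC1) relative to all counts of the library. edgeR called 0 of all genes, and 0 with the size factors of DESeq2 or an identity of at least 80%, against 3 by DESeq2 (ID1, LOC102185492 and TPM4), 104 without the filter (42 higher and 62 lower, 1 of them COL1A1), and between 4 and 48 with a treated library left out, with 0 of the group. Without the filter, 1 gene of the group was called. The cause of these changes was not tested.

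The direction in T2 depended on the library total for most genes. The median log2 x-fold of the group there was 3.09, between 2.24 and 3.71 under the other filters, pseudocounts, scalings to goat gene counts and unigene choices, but -1.66 relative to all counts and -1.55 with the unnamed paired unigenes in the library size, the latter chosen after seeing the data. Relative to all counts, the log2 x-fold in T2 was -1.09 for COL18A1, -0.85 for COL4A1, -1.03 for COL4A2, -0.20 for COL5A1, -0.40 for COL5A2, -1.66 for COL6A1, -1.36 for COL6A2, -1.04 for COL6A3, -1.27 for LOC100860925 (COL15A1), -2.24 for LAMA2, -0.91 for LAMA4, -2.06 for LAMB1, -3.14 for LAMB2, -3.02 for LAMC1, -1.86 for ITGA1, -1.60 for ITGA5 and -1.91 for ITGA6, while COL1A1 at 0.46 and, under their LOC names, COL3A1 (LOC100860938) at 1.27 and COL1A2 (LOC100860940) at 0.44 stayed above control. By construction these values count the mitochondrial RNA in the total.

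Depth limits T2 most, where 20 of the 42 genes had 3 counts or fewer. No paired analysis was possible because there is a single control library, which shares no replicate number with 2 treated libraries or more.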
